A study of Mus musculus with 8 samples.

Results

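Klf2, Klf3, Klf13, Foxo1, Foxp1, S1pr1, Txnip, Bcl11a and Ets1 are transcription factors and targets that mark resting, recirculating B cells. The 9 genes were chosen by symbol, and all 9 were among the 24259 symbols of the count table and the 12744 genes tested. They were followed in 8 RNA-seq libraries of NP+IgDlowB220+ pre-GC B cells, that is, B cells that bound the hapten NP, had reduced surface IgD and were developing toward the germinal center (GC), sorted from lymph nodes 3 days after immunization with NP-OVA and LPS in alum. The recipients in both groups were CD45.1 Sap-/- mice, whose own T cells support GCs poorly for lack of the adaptor SAP, and the labels give the strain as C57BL/6. In the HET group (n = 4) help came from transferred ovalbumin-specific OT-II T cells carrying CD4-Cre and Bcl6fl/+, so that 1 of their Bcl6 alleles was floxed. In the WT group (n = 4) the OT-II T cells carried CD4-Cre and no floxed allele. The transferred cells were T cells, and the sequenced B cells came from the recipients, for which no Cre or floxed allele is named. No targeted gene was therefore available in the B cells to check the group names. Cells from recipients of a group were pooled before 4 repeats of about 200 cells were sorted, and p-values therefore measure the spread of sorting and library preparation, with pool and group not to be told apart. The libraries held 6652386 to 12559189 counts, of which the 9 genes took 0.223 to 0.269%, and the lowest member count in a library was 544.

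KLF2 and FOXO1 are factors of lymphocyte quiescence. FOXO1 is kept out of the nucleus when PI3K and AKT are active downstream of the antigen receptor and co-stimulation, and KLF2, which is driven by the ERK5 and MEF2 pathway and by FOXO1 in T cells, is lost upon activation. Among the targets linked to these factors is S1pr1, the receptor for sphingosine 1-phosphate that lets lymphocytes leave lymph nodes. B cells that divide and enter the GC shut much of this program down, while FOXO1 is again used by GC B cells of the dark zone.

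The promoters of Klf2 and Txnip are shown because they belong to the gene with the largest difference between groups (Klf2) and to the only member with a positive fold change (Txnip). RefSeq on GRCm38.p6 gave a promoter for 7 of the 9 genes, and the sequences below hold the 250 bases before the start that RefSeq gives, on the strand of the gene, with each motif searched on both strands. In the Klf2 promoter (chr8:72318812-72319061, plus strand) capitals mark a match to the MEF2 consensus, whose first base lies 118 bases before the start, and a KLF motif (CACCC, here read on the other strand) 19 bases before it. GENCODE, used for gene positions here, starts Klf2 at 72319033, so by that start the end of the window, with this KLF motif, lies inside the gene. In the Txnip promoter (chr3:96557707-96557956, plus strand) capitals mark, from left to right, CCAAT (read on the other strand), the FOXO motif GTAAACA, then CCAAT once more and a pair of CACGAG, part of the carbohydrate response element.
Klf2: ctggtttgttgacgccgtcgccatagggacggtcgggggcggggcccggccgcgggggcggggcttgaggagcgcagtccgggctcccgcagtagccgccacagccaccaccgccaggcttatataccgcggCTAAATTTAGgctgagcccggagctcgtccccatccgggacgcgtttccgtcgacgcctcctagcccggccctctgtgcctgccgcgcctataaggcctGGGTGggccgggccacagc
Txnip: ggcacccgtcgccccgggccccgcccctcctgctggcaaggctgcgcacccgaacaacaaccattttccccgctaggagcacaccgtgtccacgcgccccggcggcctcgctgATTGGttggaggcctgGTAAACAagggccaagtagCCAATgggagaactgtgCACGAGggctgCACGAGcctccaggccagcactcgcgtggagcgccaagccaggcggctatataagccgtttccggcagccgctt
The MEF2 consensus occurred in 2.92% and CACCC in 52.0% of 32851 promoter windows of the same length, GTAAACA in 3.17%, CACGAG in 5.37% and CCAAT in 33.8%. GTAAACA stood in the Txnip window and in no other of the 9 windows of the members, Klf2 included. The 2 CACCC of the Txnip window and the GC boxes (GGGCGG) of both windows were left in lower case. These matches describe the letters only.

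Expression of the 9 genes was first placed on a common scale. Levels between genes were compared as CPM (counts scaled to a fixed library total after TMM normalization) per kilobase of exonic length from GENCODE M21 on GRCm38. This length merges all annotated exons of a gene and can exceed that of the transcripts expressed, so the order depends on it. Txnip, whose product binds thioredoxin and limits glucose uptake, had the highest level with HET at 148 ± 11.5 and WT at 143 ± 16.3 CPM per exonic kilobase (SD, n = 4 each). Klf2 followed with HET at 88.0 ± 16.2 and WT at 135 ± 19.99 (SD, n = 4 each). S1pr1 stood at 69.0 ± 8.18 and 75.4 ± 14.1 (SD, n = 4 each), respectively. Ets1, Klf13 and Foxp1 came next, with means over all 8 libraries of 47.3, 40.2 and 33.6 CPM per exonic kilobase. Foxo1 (15.4), Bcl11a (15.4) and Klf3 (8.60) were lowest. Neighbours in this order kept it in all 8 libraries except for 3 pairs. Txnip was above Klf2 in 6 libraries, Klf2 was above S1pr1 in 6, and Foxo1 was above Bcl11a in 3, so the last pair could not be ordered.

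The deposited TPM table gave another order for the lower 6 genes. The gene length implied by count over TPM followed the genomic span of a gene, introns included, more closely than its exonic length (Pearson r of 0.982 against 0.786 on the log scale, across 17285 genes, which are not independent replicates). Genes with long introns were therefore set low in TPM. Foxp1 has exons over 2.30% of its 597384 bp and went down in rank, from 6 to 8, whereas Klf3, with exons over 38.1% of 29514 bp, went up from 9 to 5. Differences in CPM between groups within a gene do not depend on this length.

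**Figure D1:**
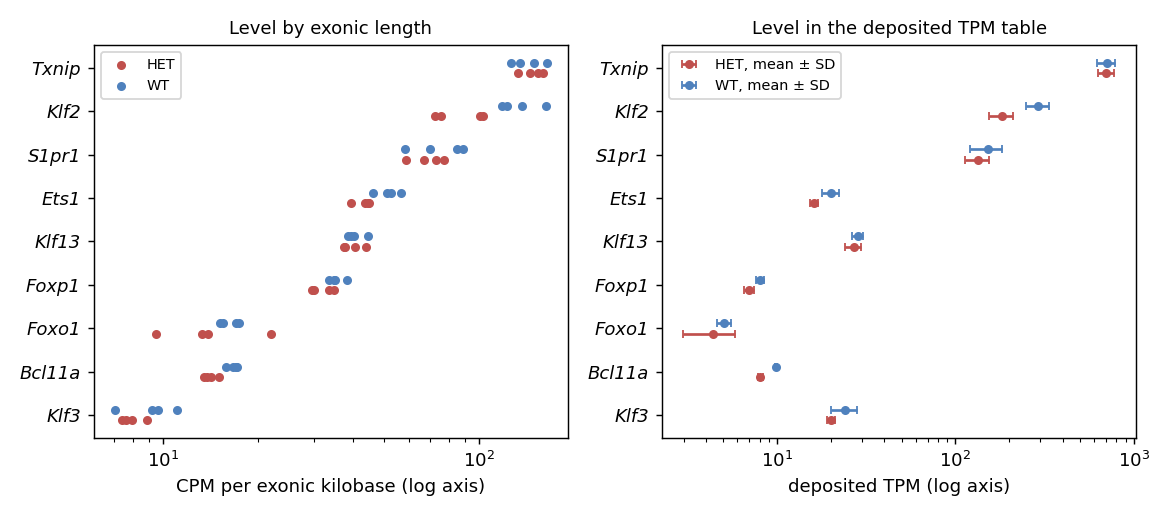
Levels of the 9 genes, in the order given by exonic length. Left, CPM per exonic kilobase in each library (log axis, 4 HET and 4 WT points per gene). Right, the deposited TPM values as mean ± SD (log axis, n = 4), in which Klf3 lies above Ets1 in WT with 24.1 against 20.2 TPM.

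To ask if this program differed with the help that the B cells had received, the members were compared between groups by edgeR's quasi-likelihood test over all genes. Klf2, Ets1 and Bcl11a were lower in HET with no overlap between the groups, and Klf2 differed most, at 0.652 times its WT level. The other 6 members overlapped between the groups, with unadjusted p from 0.113 to 0.779. No member passed an adjusted p of 0.05 in edgeR, and 3 of all genes did (0.0235% of those tested). At an unadjusted p under 0.05, 3 of 9 members were lower in HET, where 3.88% of all genes were, and 0 were higher, where 3.34% of all genes were. Among the 1732 genes with a mean expression at or above that of the lowest member, 8.55% were lower at this limit. The HET values were without exception below the WT values for 3 of 9 members, 2.62% of all genes and 5.14% of those 1732 genes. DESeq2 called 1 member lower, Klf2, against 0.39% of its genes. The fold change was negative for 8 of 9 members, and their median log2 fold change was -0.15, against -0.0014 over all genes tested. As these are bulk samples, fewer cells that express a gene and less RNA of it per cell cannot be told apart.

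**Figure D2:**
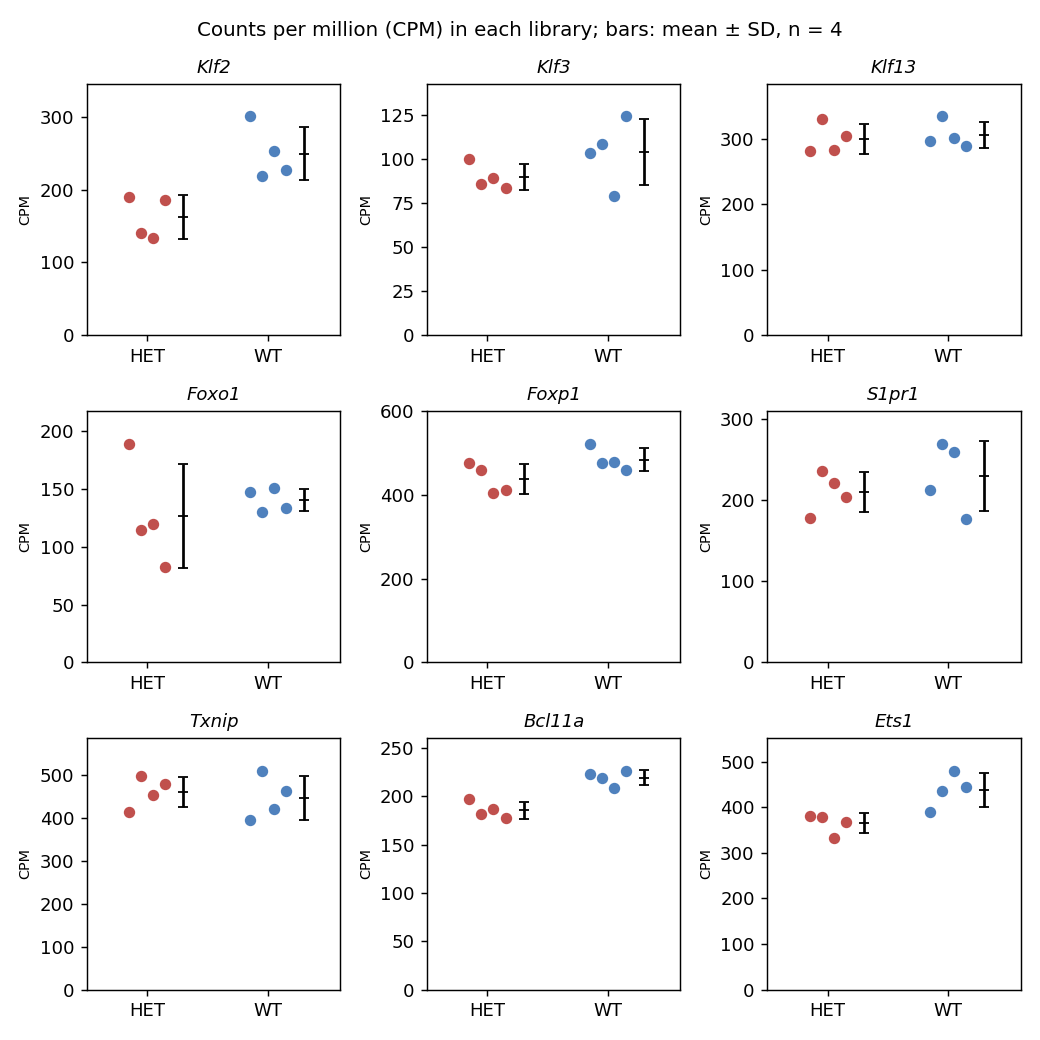
CPM of each member in each library, with the mean ± SD (n = 4) beside the points and each axis starting at 0. HET points lie below all WT points for Klf2, Bcl11a and Ets1, and the groups overlap for the other 6 genes.

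Klf2 (chromosome 8, 72319033 to 72321656 on GRCm38, protein-coding) encodes the zinc finger factor of quiescence described above. Its level in HET replicates 1 to 4 was 190.4, 140.2, 133 and 186 CPM. In WT replicates 1 to 4 it was 300.4, 219, 253 and 226 CPM. Every HET library thus lay below the lowest WT library, and the HET libraries themselves formed a higher and a lower pair. The means were 163 ± 29.98 CPM in the HET libraries and 249 ± 36.9 CPM in the WT libraries (SD, n = 4 each). This gave a log2 fold change of -0.62 (SE 0.14, 95% interval -0.92 to -0.31). The unadjusted p was 0.000725, place 39 of 12744 genes, and the adjusted p was 0.234 in edgeR and 0.0159 in DESeq2. Over the 17 other settings the adjusted p ranged from 0.0159 to 0.598 and passed 0.05 in 2 (DESeq2, and edgeR with no filter on low counts). The unadjusted p stayed at or below 0.0039 in each of the 8 fits that left out 1 library, with log2 fold changes from -0.70 to -0.52.

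Of the other KLF members, Klf3, a repressor that recruits CtBP proteins, lies on chromosome 5 (64803388 to 64832901). It was present at 100.1, 85.6, 89.3 and 83.6 CPM in HET and at 103, 109, 79.3 and 124 CPM in WT. WT replicate 3 was the lowest of all 8 libraries for Klf3 while the other 3 WT libraries were the highest. Over all libraries Klf3 had a log2 fold change of -0.21 (SE 0.15, edgeR adjusted p = 0.801). Without WT replicate 3 it was -0.31, at an unadjusted edgeR p of 0.0335 (adjusted p = 0.802). Klf13 (chromosome 7, 63886351 to 63938915), known as an activator of Ccl5 in T cells, ranged from 282 to 331 CPM in HET and from 289 to 334 CPM in WT. The groups overlapped at a log2 fold change of -0.027, with an interval of -0.23 to 0.17, so that a difference of the size seen for Klf2 lay outside the interval.

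The forkhead members Foxo1 and Foxp1 were not called. Foxo1 (chromosome 3, 52268336 to 52353221) stood at 189, 115, 120.006 and 82.5 CPM in HET and at 147, 131, 151 and 134 CPM in WT. HET replicate 1 was above every WT library and the other 3 HET libraries were below every WT library. The HET values had a coefficient of variation of 35.5%, the widest of any member, against 7.01% in WT. With all libraries Foxo1 had a log2 fold change of -0.15 (SE 0.19, edgeR adjusted p = 0.912). Without HET replicate 1 it was -0.41 with an unadjusted edgeR p of 0.0166 (adjusted p = 0.492), and without HET replicate 4 it was 0.012. With all 8 libraries and a covariate for how many genes were detected it was -0.41 with an unadjusted edgeR p of 0.00611 (adjusted p = 0.401), and HET replicate 1 had the most genes detected (17736 against 16104 to 16874). The Foxo1 value thus moved with the choice of libraries and with this covariate. Since HET replicate 1 stood apart in genes detected, leaving it out and fitting the covariate are not separate checks. HET replicate 1 also had the highest sum of 6 antibody-secreting cell markers (Jchain, Prdm1, Xbp1, Sdc1, Mzb1 and Irf4), 2095 CPM against 241 to 550.2 CPM in the other 7 libraries. Most of that sum was Jchain, the joining chain of secreted IgM and IgA, at 1576 CPM against at most 97.1 CPM elsewhere. Of the other 5 markers, Mzb1 and Irf4 were highest in this library, whereas Xbp1 was higher in HET replicate 4, Prdm1 in WT replicate 4 and Sdc1 in WT replicate 2. The part of such cells in its Foxo1 level was not tested. Foxp1 (chromosome 6, 98925338 to 99522721), a forkhead factor that holds lymphocytes in the naive state, ranged from 405 to 476 CPM in HET and from 459 to 523 CPM in WT. The groups overlapped, at a log2 fold change of -0.14 (SE 0.086, edgeR adjusted p = 0.776).

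The egress receptor S1pr1 (chromosome 3, 115710433 to 115715072) was not lower beyond the spread of the repeats. It was present at 178, 236, 222 and 204 CPM in HET. In WT it was present at 212, 269.7, 259.6 and 177 CPM, so that the lowest and the highest library were both WT. The log2 fold change was -0.13 with an interval of -0.43 to 0.17 (edgeR adjusted p = 0.891). Txnip (chromosome 3, 96557957 to 96561883) was the only member with a positive log2 fold change, 0.043 with an interval of -0.17 to 0.25 (edgeR adjusted p = 0.958). It ranged from 415 to 497 CPM in HET and from 395 to 510.2 CPM in WT. Its sign was not stable, since it was -0.0026 when tested on log2(TPM + 1) and -0.016 without WT replicate 1.

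Ets1 and Bcl11a differed by less than Klf2 but with tight repeats. Ets1 (chromosome 9, 32636221 to 32757820), an ETS factor that restrains differentiation into antibody-secreting cells, stood at 379.6, 378, 332 and 369 CPM in HET and at 389.8, 434, 479.7 and 445 CPM in WT. HET replicate 3 was lowest and WT replicate 3 highest, and the groups did not overlap. For Ets1 this was a log2 fold change of -0.26 (SE 0.090, unadjusted p = 0.0113, edgeR adjusted p = 0.569). Bcl11a (chromosome 11, 24078056 to 24174123), a zinc finger factor needed for B cell development, stood at 197, 181, 187 and 177 CPM in HET and at 224, 219, 208 and 226 CPM in WT. All 4 HET libraries lay under the lowest WT library. For Bcl11a this was a log2 fold change of -0.24 (SE 0.093, unadjusted p = 0.0221, edgeR adjusted p = 0.603). With either HET replicate 2 or WT replicate 4 left out, the unadjusted edgeR p of Bcl11a was 0.051.

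**Figure D3:**
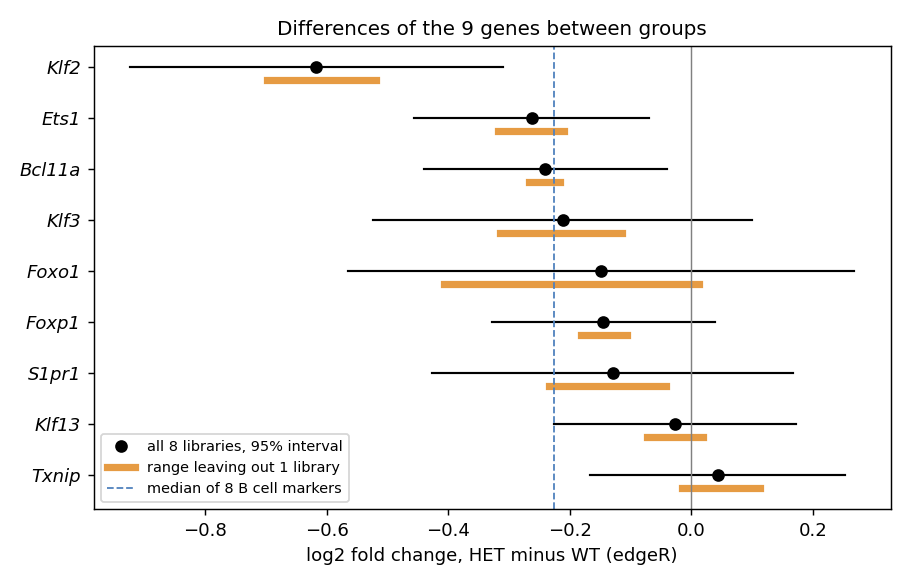
Log2 fold change (HET minus WT, edgeR) of the 9 members. Points and thin lines give all 8 libraries with the 95% interval, thick bars the range over the 8 fits without 1 library, and the dashed line the median of 8 B cell markers (-0.23). The intervals of Klf2, Ets1 and Bcl11a exclude 0.

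General B cell transcripts were also lower in HET and were set beside these values. All 8 listed B cell markers were lower, 7 of them at an unadjusted p under 0.05 in edgeR, none at an adjusted p under 0.05, with a median log2 fold change of -0.23. Cd22, an inhibitory coreceptor, was lower with a log2 fold change of -0.37 (edgeR adjusted p = 0.220, DESeq2 adjusted p = 0.0159). The markers summed to between 10530 and 11719 CPM in HET and between 12281 and 13312 CPM in WT. Per 1000 counts of these markers, Klf2 had 17.4, 12.8, 11.4 and 17.7 counts in HET and 23.1, 17.8, 18.97 and 18.3 counts in WT. The groups still did not overlap for Klf2, with 17.70 in the highest HET and 17.79 in the lowest WT library, and HET had 0.758 times the WT mean. On this scale, which was chosen after the data were seen, Ets1 (0.964 times) and Bcl11a (0.976 times) overlapped between groups. Only 1 of 9 members then remained without overlap, and 4 members were lower and 5 higher in HET. The lower marker sum in HET raises every gene in HET on this scale, relative to CPM. No share over all genes was computed on it, so these counts have no background.

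**Figure D4:**
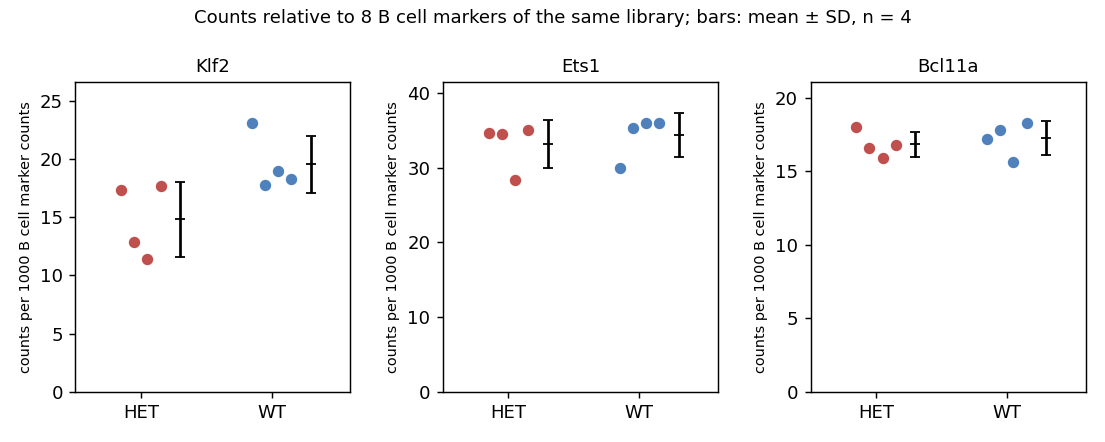
Counts of Klf2, Ets1 and Bcl11a per 1000 counts of 8 B cell markers in the same library, with the mean ± SD (n = 4). The groups are apart for Klf2 (at most 17.7 in HET, at least 17.8 in WT) and overlap for Ets1 and Bcl11a.

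Transcripts of other cells were present, with summed levels below those of the B cell markers. Single genes among them reached the level of members. In HET replicate 2, Cd8b1 was at 123 CPM and Klf3 at 85.6 CPM. T cell markers, 14 genes, summed to 373 to 715 CPM in HET and 218 to 546 CPM in WT. Lck was the largest of these 14 in every library, at 120 to 172 CPM in HET and 92.4 to 148 CPM in WT. All 13 that were tested were higher in HET, 0 of them at an unadjusted p under 0.05 in edgeR. Of the 14, 13 were above 0 in all 8 libraries, the T cell receptor and CD3 genes included, with Cd3d at up to 46.4 CPM and Trbc2 at up to 75.9 CPM. Cd8b1, of the CD8 subset, reached 123 CPM, and Cd4, of the helper subset, was at 0 in 5 of 8 libraries and at most 0.758 CPM. All 6 NK cell markers were higher in HET (54.0 to 187 CPM against 37.2 to 102 CPM), again 0 at an unadjusted p under 0.05 in edgeR. The myeloid markers summed to 74.3 to 288 CPM in HET and 49.4 to 518 CPM in WT, where WT replicate 2 alone held 399 CPM of Lyz2. Of the endothelial and stromal markers, Cdh5 was at most 2.49 CPM and Tek at most 0.161 CPM. Kdr was at most 3.46 CPM in HET and reached 15.8 CPM in WT replicate 3 and 6.68 CPM in WT replicate 4. Pecam1, which B cells also express, made up most of the sum of this list. The part of these cells in the members' levels was not tested.

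Genes upstream of the members were next examined. Of 6 genes of the ERK5 and MEF2 branch that drives Klf2, 5 were lower in HET and 0 passed an unadjusted p of 0.05 in edgeR. Mef2c was present at 696 ± 44.6 CPM in the HET libraries and 781 ± 56.0 CPM in the WT libraries (SD, n = 4 each), at an edgeR adjusted p of 0.706. Mef2d gave a log2 fold change of -0.27 (edgeR adjusted p = 0.716), and Mapk7, which encodes ERK5, had 7.70 to 29.3 CPM. Of 13 genes of the PI3K and AKT branch that acts on FOXO1, 1 was lower at an unadjusted p under 0.05, Pik3r1, the p85 alpha subunit of PI3K (log2 fold change -0.40, edgeR adjusted p = 0.667). Sgk1, a kinase of this branch, ranged from 32.3 to 43.4 CPM in HET and from 17.4 to 41.5 CPM in WT.

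Genes downstream of FOXO factors and other genes of quiescence were examined in the same way. Of 17 FOXO-activated genes, 10 were lower and 7 higher in HET, with 3 lower and 0 higher at an unadjusted p under 0.05 in edgeR, 0 at an adjusted p under 0.05 and a median of -0.061 on the log2 scale. Btg1 and Rbl2, which the list of quiescence factors also holds, were among the 3. Btg1, an antiproliferative factor, was present at 1293 ± 138 CPM in the HET libraries and 1585 ± 119 CPM in the WT libraries (SD, n = 4 each), without overlap. Rbl2, a pocket protein that holds cells in G0, had a log2 fold change of -0.84 (edgeR adjusted p = 0.575), with WT values from 25.7 to 69.3 CPM. Of 15 quiescence factors outside the members, 13 were lower in HET, 3 of them at an unadjusted p under 0.05 (Btg1, Rbl2 and Bach2), and Tsc2, a brake on mTORC1, was higher (log2 fold change 0.45, edgeR adjusted p = 0.657).

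Homing and egress genes were higher or lower in HET depending on the gene. Of 9 homing receptors, 1 was lower and 1 was higher in HET at an unadjusted p under 0.05 in edgeR. The higher one was Cxcr5, the receptor for the follicular chemokine CXCL13 (log2 fold change 0.27, edgeR adjusted p = 0.602). Among S1P genes, Cd69, whose product pulls S1PR1 off the surface, was present at 231 ± 56.7 CPM in the HET libraries and 291 ± 15.7 CPM in the WT libraries (SD, n = 4 each), at an edgeR adjusted p of 0.634. S1pr2, the receptor that confines B cells to the GC, went the other way, with 2.43 to 27.2 CPM in HET and 0 to 4.18 CPM in WT (edgeR adjusted p = 0.547). S1pr4 gave a log2 fold change of -0.047 (edgeR adjusted p = 0.960). Of 10 tested genes around TXNIP, Txn1, which encodes its partner thioredoxin, was higher in HET at 245 ± 20.96 CPM against 186 ± 19.8 CPM (SD, n = 4 each), without overlap (edgeR adjusted p = 0.371, DESeq2 adjusted p = 0.0516). Arrdc3, an arrestin relative of Txnip, had 7.38 to 11.5 CPM in HET and 10.2 to 13.8 CPM in WT.

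Lists of cell state gave values that moved with the groups. Of 10 naive follicular genes, 9 were lower in HET and 5 of them at an unadjusted p under 0.05 in edgeR, with Cd38 lowest in p (log2 fold change -0.48, edgeR adjusted p = 0.212, DESeq2 adjusted p = 0.00251). All 13 tested immediate early genes were lower, 6 at an unadjusted and 3 at an adjusted p under 0.05 in edgeR, among them Fos (log2 fold change -1.43, edgeR adjusted p = 0.00206) and Jun (edgeR adjusted p = 0.0411). The summed level of all 16 was 1469 to 1725 CPM in HET and 2073 to 2630.4 CPM in WT. All 23 proliferation genes were higher in HET, 8 at an unadjusted and 0 at an adjusted p under 0.05 in edgeR, with sums of 1657 to 2439.7 CPM and 1004 to 1659.7 CPM. Ccnb2, a mitotic cyclin, had the lowest p among them (log2 fold change 1.53, edgeR adjusted p = 0.0870). The members summed to 2224 to 2425 CPM in HET and 2546 to 2703 CPM in WT. The part of cell state in the members' levels was not tested.

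**Figure D5:**
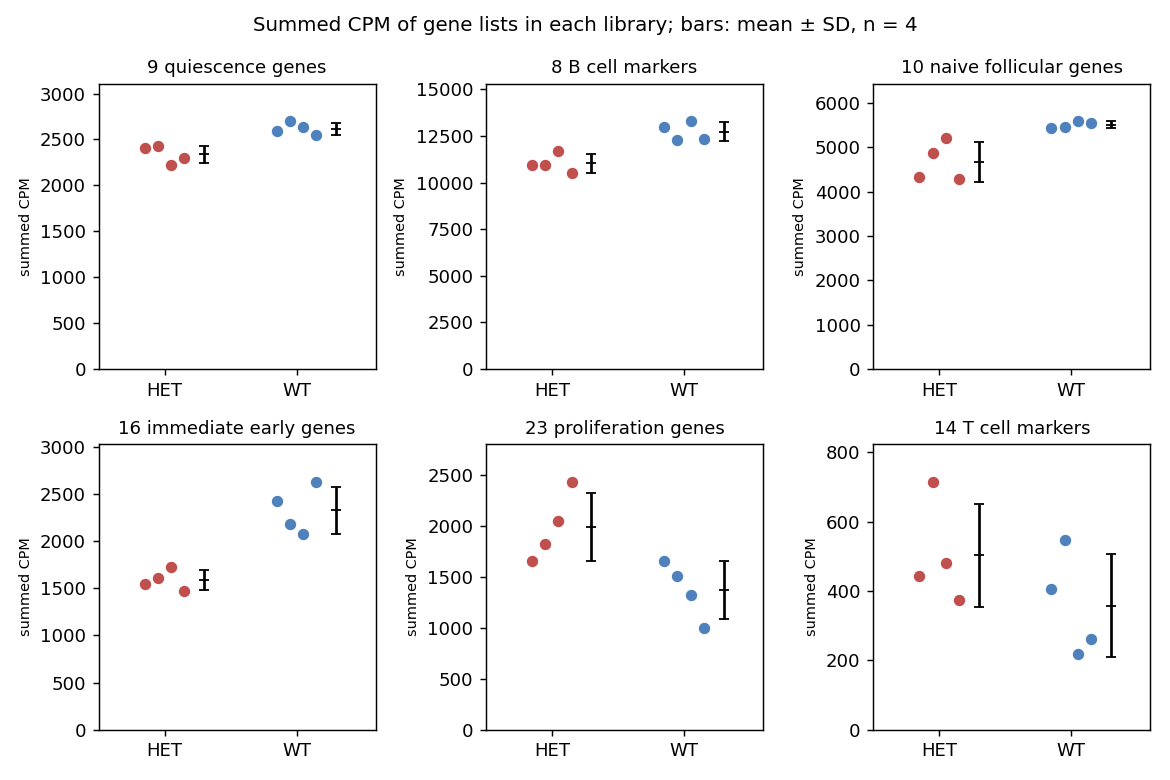
Summed CPM per library for the 9 members and 5 other lists, with the mean ± SD (n = 4) and axes from 0. The members, the B cell markers, the naive follicular genes and the immediate early genes were lower in all 4 HET libraries, and the proliferation and T cell sums overlapped between groups.

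Genes with a profile like that of Klf2 were sought among 7142 other genes whose log2 CPM averaged 4 or more. Likeness was the root mean square difference in log2 CPM, centred per gene, over the 8 libraries. The nearest were Leng8 (0.139), Ankrd44 (0.139), Lrrk2 (0.143), Fchsd2 (0.146) and Tut7 (0.163). Leng8 was present at 112 ± 9.76 CPM in the HET libraries and 167 ± 22.8 CPM in the WT libraries (SD, n = 4 each). Likeness was measured over both groups, so a lower level in HET was built into the choice of Leng8. Among the members, Bcl11a (0.282), Ets1 (0.291) and Foxp1 (0.299) were nearest to Klf2 and Txnip (0.451) was farthest, and Bcl11a would take place 293 among the 7142 genes.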

How the data were processed

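The labels and the methods of the study describe SMART-Seq2 libraries adapted to about 200 cells, reads aligned to GRCm38 with HISAT2 2.2.1 and counted with HTSeq-count. Which annotation release and strand setting were used was not given in the sources used here. The authors deposited whole-number counts for 24259 symbols and TPM values for 24232, matched to libraries by column name. Total counts ranged from 6652386 to 12559189 per library, at which 3 counts equal 0.241 to 0.455 CPM, and these floors cover counting error only. The study used DESeq2 for expression. Here counts were tested with edgeR 4.0.16 in R 4.3.3 (filterByExpr, TMM, robust quasi-likelihood F-test, no covariate) and Benjamini-Hochberg adjusted over all 12744 genes. The SE of a fold change came from this F, and 95% intervals used the t quantile of the fit. The scripts were tested on simulated data. Repeats of a group differed by more than counting error (12.6 to 29.1 times that of sampling, as chi-square over its degrees of freedom). Alternatives were DESeq2 1.42.0, RLE factors, other filters, a replicate block, limma-trend (limma 3.58.1) on log2 TPM with pseudocounts of 1 and 0.1, genes detected as a covariate and leaving out libraries. All members were named. From each list up to 4 genes with the lowest unadjusted p under 0.05, at most 2 per direction, and a panel of 14 regulators and paralogs were eligible, together with the 5 genes most like Klf2. Bach2 and single markers of other cells (Cd3d, Trbc2, Cd4, Cd8b1, Lck, the antibody-secreting cell markers, Cdh5, Tek, Kdr, Pecam1 and Lyz2) were named beyond this after their values were seen. Some genes of the lists entered the counts and are not reported here by name. Members and lists were chosen with earlier results of these data known. Gene positions came from GENCODE M21, which held 23555 of the symbols.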

Additional observations from a re-analysis of the deposited data

How the results depend on the processing

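Over 17 other settings for 9 members, 135 of 153 log2 fold changes kept their direction and their side of an unadjusted p of 0.05, 5 no longer passed it, 5 newly passed it and 8 changed sign. The members past an adjusted p of 0.05 numbered 0 in edgeR with all libraries, 1 in DESeq2 and 1 with no filter on low counts, Klf2 in both, and the genes past it were 3, 95 and 38, respectively. These genes were 7 with a mean of at least 50 counts, 1 with genes detected as a covariate, 1 on log2(TPM + 0.1) and 0 on log2(TPM + 1), where limma-trend gave 611 genes lower and 371 higher before adjustment (p under 0.05), and 1 member (Klf2) was lower at that limit against 3. The median of the members, -0.15, became -0.21 on log2(TPM + 1), -0.25 on log2(TPM + 0.1) and -0.22 with the covariate. Txnip turned to -0.0026 on both TPM scales and Klf13 to 0.0022 with the covariate. With 1 library left out, 2 to 4 members were lower at the unadjusted limit, where 395 to 541 of 12910 to 13398 genes were. In these fits 1 to 6 genes passed the adjusted limit. The median of the members ranged from -0.26 (without HET replicate 1) to -0.11 (without HET replicate 4). Klf13 then ranged from -0.072 to 0.020, Foxo1 from -0.41 to 0.012 and Txnip from -0.016 to 0.11. Without both HET replicate 1 and WT replicate 4, chosen after seeing the data, 5 members were lower at the unadjusted limit (Foxo1 and Foxp1 added). At this limit 457 of 12630 genes were lower in this fit. The median of the members was -0.21, and 5 members did not overlap between groups. Non-overlap is easier to reach with fewer libraries, and its share over all genes was not computed in this setting. Relative to B cell markers, 1 member did not overlap, with no share over all genes computed. The cause of these changes was not tested.

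Same-numbered libraries did not deviate together (correlations of deviations from the group means from -0.011 to 0.057 across 7151 genes, and 1 of 4 HET libraries correlated best with the WT library of its own number), so the replicate block was only an alternative. With the replicate block 0 genes passed an adjusted p of 0.05 in edgeR, 448 genes were lower and 464 higher before adjustment (p under 0.05), 3 of the members among the lower ones, and the median of the members was -0.20. With 4 repeats per group the SE of the members' log2 fold changes ran from 0.086 (Foxp1) to 0.19 (Foxo1), and this spread limits which changes could be told from 0.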

Other observations

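Relatives of the members, which share their DNA-binding domains, added values in both directions. Of 14 other KLF genes 8 were tested. Klf6, an early response member, was lower in HET at 66.5 ± 8.53 CPM against 84.9 ± 13.8 CPM (SD, n = 4 each), with an unadjusted p of 0.0389 (edgeR adjusted p = 0.654). Klf11 was higher at 8.72 ± 4.32 CPM against 3.39 ± 1.88 CPM (SD, n = 4 each), with an unadjusted p of 0.0229 (edgeR adjusted p = 0.612). The groups overlapped for both. Klf4 had 4.55 to 15.3 CPM in HET and 6.31 to 15.6 CPM in WT.

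Of 13 tested ETS genes besides Ets1, 7 were higher and 6 lower in HET, and 1 passed an unadjusted p of 0.05 in edgeR. This was Etv6, a repressor, with 15.9, 22.8, 15.1 and 11.7 CPM in HET and 11.2, 6.40, 6.18 and 10.5 CPM in WT, all HET libraries above all WT libraries (log2 fold change 0.93, unadjusted p = 0.0168, edgeR adjusted p = 0.589). Fli1 gave a log2 fold change of -0.17 (edgeR adjusted p = 0.825). None of the 4 tested FOXO and FOXP relatives passed an unadjusted p of 0.05 in edgeR, and Foxo3 gave a log2 fold change of 0.095 (edgeR adjusted p = 0.972). Foxp4 gave a log2 fold change of -0.090 (edgeR adjusted p = 0.970). The median log2 fold change was 0.015 over the ETS relatives, -0.10 over the FOXO and FOXP relatives and -0.13 over the KLF relatives, against -0.0014 over all genes.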
